A study of Homo sapiens with 30 samples.

Results

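The comparison described here is between brain endothelial cells that received extracellular vesicles from C5a-stimulated cells (EV-C5a, n = 3 libraries) and the same cells given vesicles from unstimulated cells (EV-Control, n = 3 libraries). These 6 libraries were taken by their labels from a series of 30, and no measured value entered the choice. All 15918 genes that passed a filter on low counts in the 15 vesicle libraries were compared. The cells are hCMEC/D3, an immortalised human line from brain microvessels that stands in for the blood-brain barrier in culture. Donor cells of the EV-C5a group had been stimulated with complement fragment C5a at 50 ng/mL, and those of EV-Control had been kept in serum-free medium, with 12 h given as the time. The other 3 vesicle groups came from donors given TNF at 25 ng/mL (EV-TNF), IL-1 beta at 10 ng/mL (EV-IL1b) or epinephrine at 200 nM (EV-Epinephrine), and the same stimuli were put directly on cells in 5 matching groups. Every group is the same cell line, all libraries carry 1 batch number, and nothing in the labels says that replicates were separate cultures or separate vesicle preparations, so p-values measure only the spread between these libraries. The dose of vesicles is not given in the sources used here.

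C5a is a peptide released when complement component C5 is cleaved. It signals through the G protein-coupled receptor C5AR1, and binds a second receptor, C5AR2. Extracellular vesicles are membrane-bound particles that carry proteins, lipids and RNA from a donor cell to a recipient cell, and in brain endothelium both complement and inflammatory cytokines are known to change the adhesion molecules, chemokines and junction proteins that set how leaky the barrier is to cells and solutes.

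Libraries of the EV-C5a group held 18002139 to 18897460 counts and those of EV-Control 16690949 to 18142368. Endothelial marker genes summed to 1569 to 1575 CPM (counts scaled to the size of the library) in EV-C5a and 1550 to 1644 CPM in EV-Control, with 18 of 20 markers above 1 CPM. Of 10 leukocyte markers 5 were at 0 in all 6 libraries, and CD14 was the only one above 1 CPM. The pericyte and fibroblast list summed to 630.6 to 650.7 CPM in EV-C5a and 623.3 to 672.5 CPM in EV-Control. The libraries of EV-Control differed more among themselves than those of any other vesicle group. Their median SD of log2 CPM across genes was 0.116, against 0.102 in EV-C5a and 0.0915 to 0.0989 in the other 3 groups.

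Vesicles from C5a-stimulated cells changed few transcripts. By the quasi-likelihood test of edgeR, with p-values adjusted after Benjamini and Hochberg, 8 of 15918 genes had an adjusted p under 0.05, which is 0.0503% of those tested. Of these, 2 were higher (0.0126%) and 6 lower (0.0377%) in EV-C5a, and none differed by 2-fold or more. Raised were EIF4A1, an RNA helicase of translation initiation, and the non-coding RNA XIST. The lowered genes included AREG, a ligand of the EGF receptor, SOX17, a transcription factor of arterial endothelium, FAM43A, TBC1D16, a Rab GTPase-activating protein, and MYH9, the heavy chain of non-muscle myosin IIA. In bulk RNA a change in the cells that express a gene and a change in RNA per cell cannot be told apart.

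**Figure D1:**
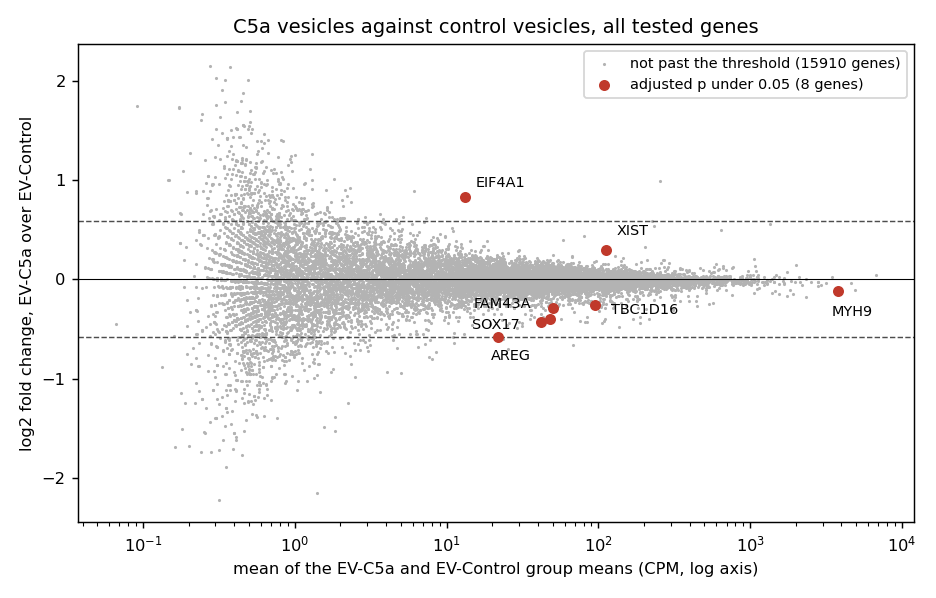
Each point is 1 of 15918 genes, with its mean CPM on a log axis and the log2 fold change of EV-C5a over EV-Control; dashed lines mark 1.5-fold. The 7 labelled genes passed the threshold, and all except EIF4A1 lie between the dashed lines, where most genes above 5 CPM also lie.

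EIF4A1 stood at 15.3, 15.9 and 19.6 CPM in the EV-C5a libraries and at 9.15, 8.58 and 10.8 CPM in those of EV-Control. All EV-C5a libraries were above all EV-Control libraries. The log2 fold change was 0.83 (SE 0.12, 95% interval 0.60 to 1.06), and the adjusted p was 3.08e-05 (edgeR). The level in EV-C5a was not particular to C5a vesicles. Its mean was 16.9 CPM there and 15.5, 18.6 and 18.7 CPM in EV-TNF, EV-IL1b and EV-Epinephrine. EV-C5a did not differ from any of those groups past the threshold (adjusted p = 0.545, 0.489 and 0.394, edgeR). The gene lies on chromosome 17 at 7572706 to 7579005 (plus strand, GENCODE 29 on GRCh38). It shares its strand with the readthrough transcript SENP3-EIF4A1 and with the small nucleolar RNA genes SNORA48 and SNORD10, and how reads were split among them is not given in the sources used here, so its count is uncertain. XIST was raised by 0.30 on the log2 scale (adjusted p = 0.0031, edgeR's quasi-likelihood test) and overlaps TSIX on the other strand, whose reads cannot be told apart without strand.

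AREG was at 21.4, 14.98 and 16.4 CPM in EV-C5a and at 29.6, 25.4 and 24.0 CPM in EV-Control. The highest EV-C5a library stayed under the lowest EV-Control library. It fell by 0.58 on the log2 scale (SE 0.11, 95% interval -0.79 to -0.36, adjusted p = 0.0125, edgeR). SOX17 was at 37.2, 34.0 and 35.7 CPM in EV-C5a and at 50.8, 51.9 and 41.2 CPM in EV-Control, a log2 fold change of -0.43 (SE 0.08, adjusted p = 0.0357, edgeR). In both genes the groups did not overlap, and for SOX17 the lowest EV-Control library was replicate 3. Mean AREG was 17.6 CPM in EV-C5a and 17.5, 12.7 and 13.6 CPM in EV-TNF, EV-IL1b and EV-Epinephrine. EV-C5a was higher than the last 2 past the threshold (adjusted p = 0.00396 and 0.0186, edgeR). Mean SOX17 was 35.7 CPM in EV-C5a and 33.6, 31.6 and 29.3 CPM in those groups. Only the difference from EV-Epinephrine passed (adjusted p = 0.0196, edgeR).

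FAM43A was at 47.6, 44.1 and 43.9 CPM in EV-C5a and at 53.8, 60.2 and 51.8 CPM in EV-Control (log2 fold change -0.29, SE 0.06, adjusted p = 0.0467, edgeR). TBC1D16 was at 90.3, 84.1 and 84.0 CPM against 110.1, 104.5 and 93.4 CPM (log2 fold change -0.25, SE 0.05, adjusted p = 0.0357, edgeR), and unnamed transcripts overlap it on both strands. MYH9, the most abundant of the lowered genes, was at 3649.6, 3745.4 and 3582.5 CPM against 4150.4, 3964.4 and 3794.0 CPM (log2 fold change -0.12, SE 0.03, adjusted p = 0.0467, edgeR). The libraries of EV-C5a were below those of EV-Control in every case. Mean FAM43A was 45.2 CPM in EV-C5a and 59.2, 53.8 and 58.2 CPM in EV-TNF, EV-IL1b and EV-Epinephrine, each difference past the threshold (edgeR). TBC1D16 was at 86.1 CPM against 85.7, 79.6 and 83.8 CPM in those groups, and none passed. MYH9 was at 3659 CPM against 3867, 3836 and 3558 CPM, and only the difference from EV-TNF passed (adjusted p = 0.0290, edgeR). AREG lies on chromosome 4 at 74445134 to 74455009, FAM43A on chromosome 3 at 194686544 to 194689037 and MYH9 on chromosome 22 at 36281277 to 36388067.

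**Figure D2:**
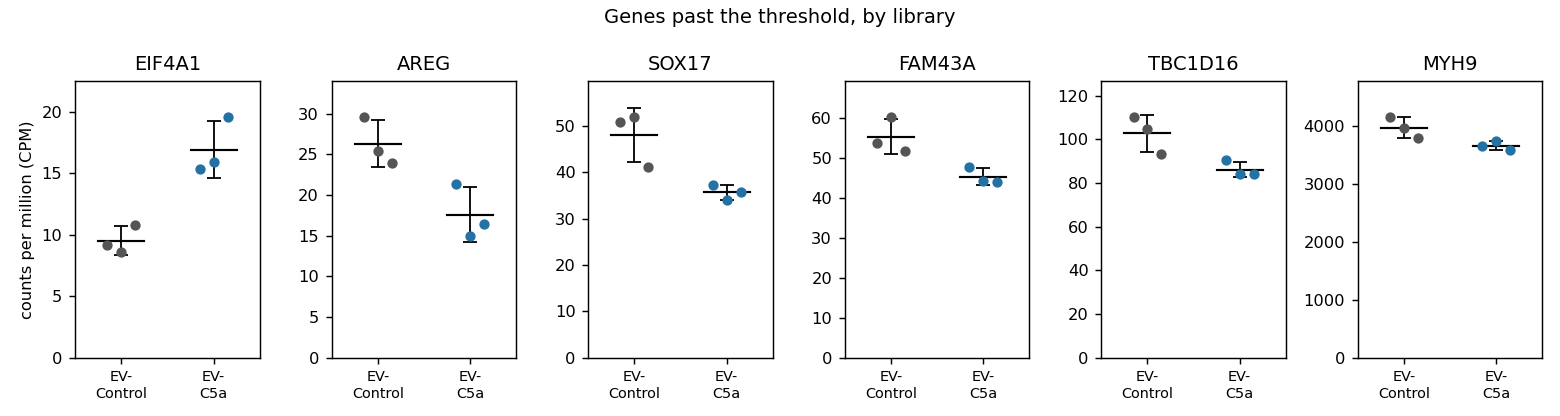
Points are CPM of single libraries of EV-Control (grey) and EV-C5a (blue) for 6 genes past the threshold, with the mean and SD of n = 3; each vertical axis starts at 0. EIF4A1 is higher and the other 5 genes are lower in all EV-C5a libraries, and the gap for MYH9 is small beside its level.

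These calls differed in how firmly they held. EIF4A1 passed in 15 of 16 alternative analyses, XIST in 14, AREG in 11, SOX17 in 8, FAM43A and TBC1D16 in 6 and MYH9 in 5, with the same sign in all 16. Leaving out 1 library at a time gave between 2 and 175 called genes. Without EV-Control replicate 3 the count was 175, 35 higher and 140 lower, and the 8 genes were all among them. Without EV-Control replicate 2 or EV-C5a replicate 2 it was 2, and without EV-C5a replicate 3 it was 3, AREG not among them. Without EV-Control replicate 1 it was 11, with only EIF4A1, FAM43A and XIST of the 8 genes. It was also 11 without EV-C5a replicate 1, with AREG among them. Voom, which weights libraries by how well they follow the fit, gave EV-Control replicates 1, 2 and 3 weights of 0.566, 1.24 and 0.774. Which of these libraries departs from its group was not tested.

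Genes just short of the threshold differed in the size of their estimates. F2RL3, the thrombin receptor PAR4, had a larger one than any called gene, a log2 fold change of -1.39 (95% interval -2.03 to -0.75, adjusted p = 0.0749, edgeR). It had 23, 15 and 18 counts in EV-C5a and 46, 50 and 43 in EV-Control, without overlap. On the raised side, IRF9, a DNA-binding factor of interferon signalling, was at 13.8, 11.7 and 13.2 CPM against 9.03, 9.03 and 9.59 CPM (log2 fold change 0.48, adjusted p = 0.126, edgeR). ANKRD36 had a log2 fold change of 0.52, DGKH, a diacylglycerol kinase, of 0.24, and SYNE2, a protein of the nuclear envelope, of 0.17. The processed pseudogene RPL7AP6 (0.62) resembles its parent gene, so its count is uncertain. On the lowered side, complement component C3 was at 77.2, 76.2 and 68.6 CPM against 90.2, 89.2 and 80.1 CPM (log2 fold change -0.22, adjusted p = 0.0882, edgeR). RIN2, a Rab5 effector, ATOH8, a transcription factor, and SUPT5H, an elongation factor of RNA polymerase II, had log2 fold changes of -0.24, -0.23 and -0.18. IRF9 and C3 did not overlap between the groups, which the rule that named them required, and neither passed. Without EV-Control replicate 3 the adjusted p was 0.0156 for F2RL3, 0.0411 for IRF9 and 0.00270 for C3 (edgeR). Each gene had an adjusted p under 0.05 in 2 alternatives, of 15 for F2RL3 and of 16 for IRF9 and C3, and this was 1 of the 2. F2RL3 and C3 also passed where the threshold was 0.1.

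Across all genes the estimates were close to 0. The median size of the log2 fold change was 0.08. At an unadjusted p under 0.05 there were 1202 genes (7.55% of those tested), 548 higher (3.44%) and 654 lower (4.11%), and EV-C5a libraries lay all above or all below those of EV-Control in 1746 genes (11.0%). The 95% interval lay inside 1.5-fold in both directions for 11035 genes (69.3%) and inside 2-fold for 12934 (81.3%). The bound depended on the level. It was inside 1.5-fold for 99.1% of genes with at least 100 CPM, for 99.02% of those at 20 to 100 CPM, for 93.0% of those at 5 to 20 CPM and for 23.4% of those at 1 to 5 CPM. None of the 2493 genes under 1 CPM was bounded in this way, and 154 of them were bounded inside 2-fold. For 3 of them the whole interval lay beyond 1.5-fold, but 0 were called.

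The receptors of C5a were expressed at low levels. C5AR1 had 81, 77 and 74 counts in EV-C5a and 107, 96 and 71 in EV-Control, which overlap. Its log2 fold change was -0.33 with a 95% interval of -0.68 to 0.03 (adjusted p = 0.698, edgeR). C5AR2 had 3, 8 and 1 counts against 15, 16 and 3 and was removed by the filter on low counts. Of 21 complement genes tested, 0 passed in either direction and 4 were lower at an unadjusted p under 0.05, as were 4.11% of all genes. Among the 4 were C3 and THBD, which encodes the anticoagulant receptor thrombomodulin. THBD was at 34.4, 34.5 and 34.5 CPM against 43.5, 45.3 and 36.2 CPM (log2 fold change -0.27, adjusted p = 0.303, edgeR). Without EV-Control replicate 3 it passed, with -0.36 (adjusted p = 0.00803, edgeR).

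Most junction and transporter genes of the barrier were bounded inside 1.5-fold, as were most genes above 5 CPM. CLDN5, the main claudin of brain endothelial tight junctions, was at 16.6, 15.7 and 15.1 CPM in EV-C5a and 15.7, 14.3 and 16.1 CPM in EV-Control. The groups overlapped, and the 95% interval of its log2 fold change ran from -0.15 to 0.23. OCLN (occludin) had a log2 fold change of 0.07 (95% interval -0.10 to 0.24), TJP1 (the scaffold ZO-1) -0.03 (-0.11 to 0.04), PECAM1 0.02 (-0.06 to 0.10) and the efflux pump ABCB1 0.04 (-0.04 to 0.11). CDH5, the cadherin of endothelial adherens junctions, had -0.09 (-0.17 to -0.01) (adjusted p = 0.585, edgeR). Of 27 barrier genes tested 0 passed, and for 26 the interval lay inside 1.5-fold. That held for 69.3% of all genes and for 99.02% of those at 20 to 100 CPM.

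Leukocyte adhesion molecules and chemokines showed no call, but here the control libraries disagreed. ICAM1 was at 174.3, 168.2 and 195.5 CPM in EV-C5a and at 256.6, 185.5 and 151.2 CPM in EV-Control. VCAM1 was at 17.8, 17.6 and 24.1 CPM against 44.3, 21.1 and 14.1 CPM. SELE, the endothelial selectin, was at 0.479, 0.380 and 0.669 CPM against 5.31, 1.57 and 0.0558 CPM. In all 3 genes EV-Control replicate 1 was the highest library, replicate 3 the lowest, and the EV-C5a libraries lay between them. Their log2 fold changes were -0.14, -0.41 and -2.15, with adjusted p-values of 0.902, 0.860 and 0.637 in edgeR's quasi-likelihood test. The values for SELE turned on the control libraries. Its log2 fold change was -2.73 without EV-Control replicate 3, which passed (adjusted p = 0.00015, edgeR), and -0.67 without EV-Control replicate 1, which did not (adjusted p = 0.892). It also passed without the filter on low counts (adjusted p = 0.00889). The cytokine IL1A went from -0.41 (adjusted p = 0.627) to -0.67 (adjusted p = 0.0136) without EV-Control replicate 3, and these were the only activation genes called without that library. ICAM1 and VCAM1 did not pass there (adjusted p = 0.410 and 0.403), and their signs were positive without EV-Control replicate 1 (0.09 and 0.18). The chemokine CXCL8 (0.03) and the cytokine IL6 (-0.24) did not pass either.

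The same order of control libraries ran through much of the activation list. Of its 31 genes tested, 19 were highest in EV-Control replicate 1 and 16 were lowest in EV-Control replicate 3. Over all 15918 genes these numbers were 3429 and 2563. Their summed level was 4399.9, 3353.5 and 2841.2 CPM in the EV-Control libraries and 3307 to 3630.0 CPM in those of EV-C5a. For 16 of the 31 genes all EV-C5a libraries lay inside the range of EV-Control, as they did for 3581 of all genes. The median log2 fold change of the list was -0.13, beside 0.00 over all genes tested. It was -0.27 without EV-Control replicate 3 and 0.16 without EV-Control replicate 1, so that its sign rested on which control library was kept.

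The transcription factor FOS, an immediate early gene named here after its values were seen, was at 294, 379 and 351 CPM in EV-C5a and at 45.0, 106 and 362 CPM in EV-Control. The orphan nuclear receptor NR4A3 ran the other way among the controls, from 139.6 CPM in replicate 1 to 28.6 CPM in replicate 3, with 42.1, 43.3 and 72.4 CPM in EV-C5a. The peptide hormone ADM was at 85.8, 91.8 and 102 CPM in EV-C5a and at 55.2, 63.8 and 87.4 CPM in EV-Control (log2 fold change 0.43, adjusted p = 0.508, edgeR). Without EV-Control replicate 3 both FOS and ADM passed, with log2 fold changes of 2.17 (adjusted p = 0.04997) and 0.65 (adjusted p = 3.52e-07).

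**Figure D3:**
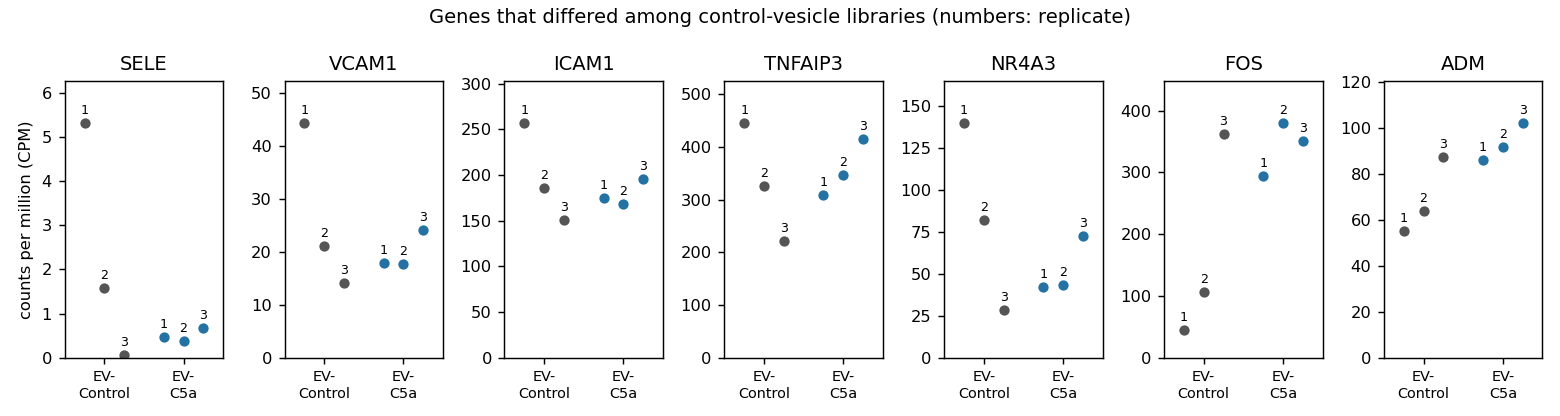
Points are CPM of single libraries, numbered by replicate, for adhesion, feedback and immediate early genes; each vertical axis starts at 0. In SELE, VCAM1, ICAM1, TNFAIP3 and NR4A3 replicate 1 is the highest and replicate 3 the lowest of the EV-Control libraries, and in FOS and ADM it is the reverse.

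Genes induced by cyclic AMP through the transcription factor CREB held the only gene of the pathway lists that passed. Of 18 tested, AREG passed, where 0.0377% of all genes were called lower. At an unadjusted p under 0.05, 6 were lower and 1 higher, against 4.11% and 3.44% of all genes. The median log2 fold change of the list was -0.13, and it stayed between -0.16 and -0.06 in all alternatives. Its members did not all fall, since 7 had a positive log2 fold change and 11 a negative one. FOS (0.99) and DUSP1 (0.56) were among the positive ones, and neither passed (adjusted p = 0.755 and 0.634, edgeR). PER1, a clock gene that CREB induces, was at 437.0, 368.7 and 408.9 CPM in EV-C5a and at 539.7, 503.6 and 423.1 CPM in EV-Control (log2 fold change -0.27, adjusted p = 0.508, edgeR). PDE4B and PDE4D, phosphodiesterases that break down cyclic AMP, had log2 fold changes of -0.28 and -0.45 (adjusted p = 0.601 and 0.596, edgeR). EV-Control replicate 3 lay within the EV-C5a values for PER1 and PDE4B and just under them for PDE4D. Whether these genes were called depended in part on that library. Without it PER1, PDE4B and PDE4D were all called lower, with log2 fold changes of -0.36, -0.39 and -0.66 (adjusted p = 0.00552, 0.000103 and 5.57e-05, edgeR). FOS, also on this list, was then called higher, with 2.17 (adjusted p = 0.04997, edgeR). PER1 and PDE4D also passed without the filter on low counts (adjusted p = 0.0339 and 0.00444). Without EV-Control replicate 1 the values of PER1, PDE4B and PDE4D were -0.19, -0.15 and -0.20, and none passed.

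The remaining lists stayed near 0. Of 30 interferon response genes 0 passed, the median was 0.00 and for 29 the 95% interval lay inside 1.5-fold, the exception being IRF9. The interval was that narrow for all 26 cholesterol synthesis genes, all 24 genes of endoplasmic reticulum stress, all 30 of proliferation and all 29 of vesicle biogenesis. None of these lists held a gene past the threshold. Among MAP kinase feedback genes 17 of 20 had a negative log2 fold change, with a median of -0.04, and 0 passed. All 13 mitochondrially encoded protein genes had a negative log2 fold change with a median of -0.11, none of them past the threshold. All 13 were highest in EV-Control replicate 3, as were 2537 of all 15918 genes, and without that library the median was -0.04. Mitochondrial transcripts took 2.07% to 2.11% of counts in EV-C5a and 1.99% to 2.49% in EV-Control.

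The direct response to C5a was measured in other libraries (C5a against Control, n = 3 each), so it can be set beside the vesicle response without a shared sample. Direct C5a changed 3603 of 15908 genes (22.6%), 1883 higher (11.8%) and 1720 lower (10.8%). Of the 6 genes lowered by C5a vesicles, 5 were lowered by C5a itself. AREG was at 4.73 ± 0.999 CPM in C5a and 29.3 ± 1.05 CPM in Control (SD, n = 3), a log2 fold change of -2.63, against -0.58 for vesicles. SOX17 had a direct log2 fold change of -1.09, FAM43A of -0.81 and TBC1D16 of -0.21, each past the threshold (edgeR). MYH9 had 0.09 (adjusted p = 0.123) and did not pass. Of the raised genes, EIF4A1 had -0.59 (adjusted p = 0.102) and XIST 0.33 (adjusted p = 0.481), and neither passed.

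A weak shared trend extended to genes that did not pass. Among 638 genes lower in EV-C5a at an unadjusted p under 0.05 and tested in both fits, direct C5a lowered 168 (26.3%) and raised 63 (9.88%). Among 532 such genes higher in EV-C5a it lowered 52 (9.77%) and raised 88 (16.5%). Seen from the other side, the 1710 genes that direct C5a lowered had a median log2 fold change of -0.02 in the vesicle comparison, and 39.4% of them were positive there, against 48.0% of all 15450 genes in both fits. The 1876 genes that direct C5a raised had a median of 0.00 with 50.6% positive. Across the 15450 genes Pearson's r between the log2 fold changes was 0.02, as a description over genes, which are not independent replicates. Without EV-Control replicate 3, the leave-out with the most calls, 81 of the 140 genes then lower in EV-C5a were lowered by direct C5a and 15 were raised. Of the 35 genes then higher, direct C5a raised 8 and lowered 4. Of all genes tested it lowered 10.8% and raised 11.8%. Other leave-outs were not read in this way.

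Genes that C5a itself changed most differed in what they did with the vesicles. Of 233 genes lowered over 2-fold by C5a and tested in both fits, 3 were called lower with vesicles, where 0.0377% of all genes were, and their median vesicle log2 fold change was -0.11. The 95% interval lay inside 1.5-fold for 54 of the 233, so most were not bounded. Of 80 genes raised over 2-fold 0 were called with vesicles, the median was 0.02 and 21 were so bounded. F2RL3 had -3.12 direct and -1.39 with vesicles, short of the threshold, and AREG passed in both. The genes that follow had smaller estimates with vesicles than with C5a, and none of them passed in the vesicle comparison. NR4A2, an orphan nuclear receptor of the immediate early class, was at 4.86 ± 0.587 CPM in C5a and 110 ± 7.08 CPM in Control. In the vesicle groups it was at 296.7, 251.6 and 282.3 CPM (EV-C5a) and at 376.1, 339.9 and 303 CPM (EV-Control), without overlap. Its log2 fold change was -4.49 direct and -0.29 with vesicles (95% interval -0.57 to -0.02, adjusted p = 0.637, edgeR). SIK1, a kinase that restrains CREB signalling, had -3.16 direct and -0.20 with vesicles. The cytokine LIF had -2.99 and -0.13, NR4A1 -2.82 and -0.21, and NR4A3 -3.60 and -0.66. On the raised side SFRP1, a secreted Wnt antagonist, had 1.83 direct and 0.01 with vesicles (95% interval -0.21 to 0.23). PARS2, MMRN1 and ZNF322 had 1.56, 1.40 and 1.30 direct and 0.20, 0.08 and 0.13 with vesicles. THBS1-IT1, an RNA inside the THBS1 gene whose count is uncertain because THBS1 shares its strand, had 1.67 and -0.47.

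The difference between the responses was tested as an interaction over all 30 libraries. It passed for 1989 of 16691 genes (11.9%) in edgeR's quasi-likelihood test, and for the 10 genes from NR4A2 to THBS1-IT1. Those 10 were named for a large direct change, which the interaction subtracts. Their passing was therefore largely set by the choice and is no separate support. NFKBIA, the inhibitor of NF-kappaB, fell with direct C5a (log2 fold change -1.92) and was at 643.2, 703.9 and 719.9 CPM in EV-C5a against 716.0, 655.4 and 536.4 CPM in EV-Control. CLDN5 fell with direct C5a by 1.29 on the log2 scale. The interaction was 2.04 for NFKBIA (SE 0.16) and 1.34 for CLDN5 (SE 0.13), both past the threshold.

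The starting level differed between the arms for several of these genes. CLDN5 had a mean of 15.4 CPM in EV-Control and 46.7 CPM in Control, and SFRP1 14.1 CPM and 2.12 CPM. NR4A1 had 423 CPM and 187 CPM, NR4A3 83.4 CPM and 12.2 CPM. An effect of the vesicles as such and of the handling of that arm cannot be told apart here, and their part in the interaction was not tested.

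**Figure D4:**
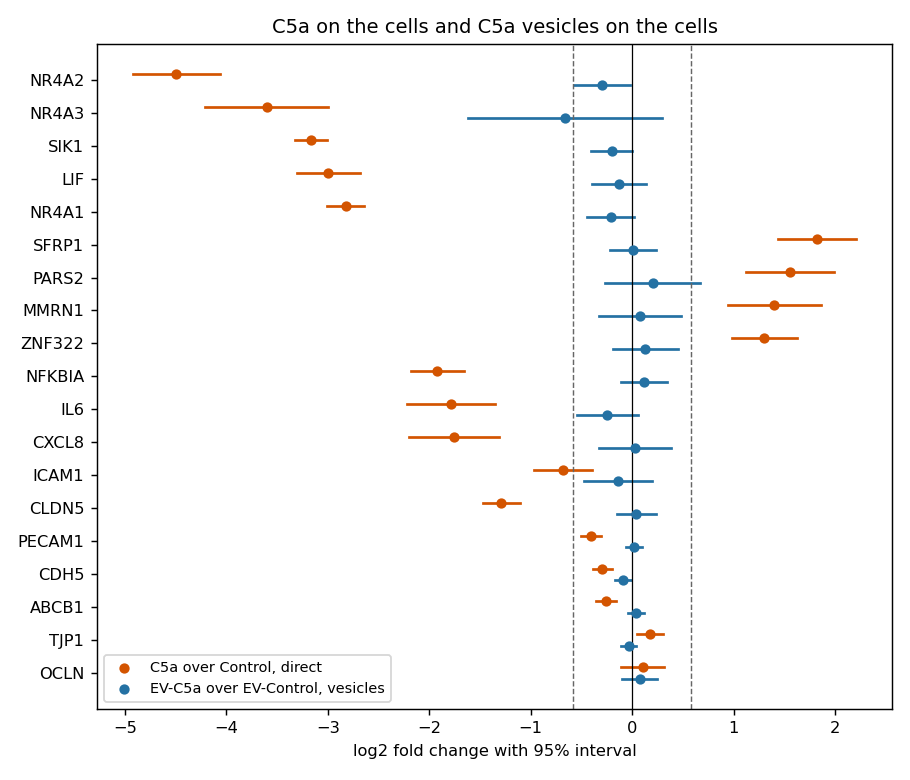
For each gene the log2 fold change with its 95% interval is shown for C5a over Control (orange) and for EV-C5a over EV-Control (blue); dashed lines mark 1.5-fold. The blue estimates all lie within 1 of 0, while the orange ones run from -4.49 for NR4A2 to 1.83 for SFRP1.

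Promoter sequence is shown for AREG, the one gene of the cyclic AMP list that passed, and for NR4A3 and SIK1, which direct C5a lowered strongly and the vesicles did not move past the threshold. Windows run from 250 bases before to 50 after the RefSeq start (GRCh38.p14), 5′ to 3′ on the gene's strand, and 11 of 16 genes looked up had one. Capitals mark matches on either strand to the cyclic AMP response element TGACGTCA or its shorter form TGACG. AREG is at chr4:74444886-74445185 (plus strand), NR4A3 at chr9:99821635-99821934 (plus strand) and SIK1 at chr21:43427082-43427381 (minus strand).
AREG: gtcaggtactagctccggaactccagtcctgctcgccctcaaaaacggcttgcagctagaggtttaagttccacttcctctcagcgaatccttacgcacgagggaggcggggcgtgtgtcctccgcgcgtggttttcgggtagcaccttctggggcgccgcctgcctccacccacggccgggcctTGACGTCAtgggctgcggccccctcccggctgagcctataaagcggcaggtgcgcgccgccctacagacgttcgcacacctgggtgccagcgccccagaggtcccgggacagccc
NR4A3: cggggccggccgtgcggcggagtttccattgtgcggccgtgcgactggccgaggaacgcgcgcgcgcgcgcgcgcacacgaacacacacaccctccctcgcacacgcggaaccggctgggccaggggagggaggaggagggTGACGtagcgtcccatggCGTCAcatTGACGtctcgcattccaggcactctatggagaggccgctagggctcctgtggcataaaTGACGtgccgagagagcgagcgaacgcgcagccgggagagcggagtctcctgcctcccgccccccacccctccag
SIK1: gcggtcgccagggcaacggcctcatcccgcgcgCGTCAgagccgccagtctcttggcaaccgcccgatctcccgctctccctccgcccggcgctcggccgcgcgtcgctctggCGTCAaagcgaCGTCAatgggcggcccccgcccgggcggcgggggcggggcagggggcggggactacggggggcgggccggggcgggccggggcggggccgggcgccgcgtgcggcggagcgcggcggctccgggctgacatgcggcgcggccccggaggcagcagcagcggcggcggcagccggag
AREG held the full element starting at position -65, which 1.85% of 35116 promoters of the same length also held. NR4A3 held 4 matches to the short form and SIK1 3, with the full element in neither. The short form, which is part of the full element, occurred in 24.6% of all promoters, so a match is common and is given as a description only. EIF4A1 held 1 match to the short form in its window, and the windows of FAM43A, MYH9 and NR4A1 held none. Only the first window listed for each gene was searched, so other start sites of a gene, NR4A1 included, are not covered.

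Set against the other vesicle groups, C5a vesicles differed in far more genes than against control vesicles. These comparisons use the same 3 EV-C5a libraries, so their counts are not independent of each other. Against EV-TNF 1754 genes passed (11.0%), against EV-IL1b 1731 (10.9%) and against EV-Epinephrine 2730 (17.2%), in edgeR's quasi-likelihood test. Interferon response genes were lower in EV-C5a in each case. Of 30 tested, 27 were lower than in EV-TNF, where 5.53% of all genes were, 27 were lower than in EV-IL1b (5.27% of all genes) and 24 were lower than in EV-Epinephrine (8.26% of all genes), with 0, 0 and 2 higher. Over the 16 alternatives these counts ran from 26 to 27, 26 to 28 and 21 to 26.

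RSAD2, an antiviral enzyme induced by interferon, was at 57.2, 51.0 and 52.6 CPM in EV-C5a, at 134.5, 139.9 and 149.2 CPM in EV-TNF, at 126.9, 117.4 and 113.2 CPM in EV-IL1b and at 87.3, 90.6 and 76.9 CPM in EV-Epinephrine. No EV-C5a library reached the lowest library of those 3 groups. The log2 fold changes of EV-C5a were -1.40 (SE 0.05), -1.15 (SE 0.06) and -0.67 (SE 0.06), with adjusted p-values of 1.16e-24, 2.13e-21 and 5.83e-13. CMPK2, a nucleotide kinase that lies next to RSAD2 and overlaps it on the other strand, had -1.27, -1.13 and -0.49, and MX1, a GTPase that restricts viruses, had -0.93, -0.81 and -0.48. IRF9 did not follow them, with 0.00, -0.30 and 0.34, of which the last passed (adjusted p = 0.0416). Mean levels of RSAD2 were 53.6 ± 3.22 CPM in EV-C5a and 55.7 ± 1.21 CPM in EV-Control (SD, n = 3), with a 95% interval of the log2 fold change from -0.17 to 0.06.

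**Figure D5:**
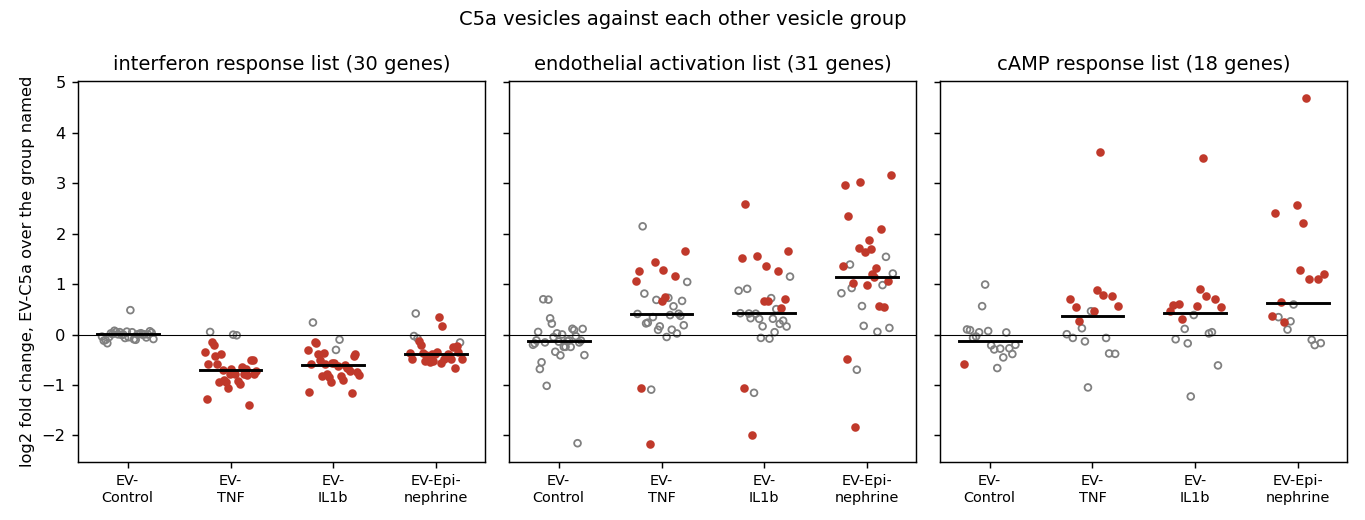
Each point is a gene of a list and its log2 fold change of EV-C5a over the vesicle group named on the horizontal axis; filled points had an adjusted p under 0.05 and bars are medians. The interferon list lies around 0 against EV-Control and below 0 against the other 3 groups, and the activation and cyclic AMP lists lie mostly above 0 against those 3.

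Genes of the cyclic AMP list were higher in EV-C5a than in the other 3 groups. Of 18 tested, 9 were higher than in EV-TNF, where 5.49% of all genes were, 10 were higher than in EV-IL1b (5.60% of all genes) and 11 were higher than in EV-Epinephrine (8.89% of all genes), with 0 lower in each. NR4A3 had a mean of 52.6 ± 17.2 CPM in EV-C5a, 4.28 ± 0.201 CPM in EV-TNF, 4.62 ± 0.695 CPM in EV-IL1b and 2.02 ± 0.546 CPM in EV-Epinephrine. Its log2 fold changes were 3.62, 3.51 and 4.68 (adjusted p = 0.00278, 0.00344 and 0.000844, edgeR). Of 31 activation genes 8, 10 and 18 were higher, against 5.49%, 5.60% and 8.89% of all genes. In each comparison 2 were lower, against 5.53%, 5.27% and 8.26% of all genes. TNFAIP3, a feedback inhibitor of NF-kappaB, was at 308.7, 347.1 and 414.9 CPM in EV-C5a and between 96.0 and 127.4 CPM in EV-TNF and EV-IL1b and 37.2 and 42.1 CPM in EV-Epinephrine. Control vesicles shared these levels. In EV-Control mean TNFAIP3 was 330.3 CPM, beside 356.9 CPM in EV-C5a, and mean NR4A3 was 83.4 CPM. Neither gene differed between EV-C5a and EV-Control past the threshold (adjusted p = 0.955 and 0.797, edgeR). Leaving out libraries or changing settings moved the activation counts to between 5 and 16, 6 and 17, and 16 and 22.

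Large differences against these groups were also found for the cadherin FAT1 and the desmosome protein DSP. FAT1 had a mean of 2.57 ± 0.403 CPM in EV-C5a, 14.9 ± 1.33 CPM in EV-TNF, 17.7 ± 2.44 CPM in EV-IL1b and 16.7 ± 0.792 CPM in EV-Epinephrine, with log2 fold changes of -2.53, -2.77 and -2.70. DSP had 8.64 ± 0.811 CPM in EV-C5a and 36.1 ± 1.503, 34.2 ± 2.95 and 33.0 ± 3.38 CPM in those groups, with log2 fold changes of -2.06, -1.98 and -1.93. Against EV-Control the log2 fold change was 0.05 for FAT1 (95% interval -0.37 to 0.47) and 0.25 for DSP (0.01 to 0.49, adjusted p = 0.637). Mitochondrially encoded protein genes were lower in EV-C5a for 5, 6 and 13 of 13 in the comparisons with EV-TNF, EV-IL1b and EV-Epinephrine, against 5.53%, 5.27% and 8.26% of all genes. The share of mitochondrial counts was 2.07% to 2.11% in EV-C5a, 2.36% to 2.80% in EV-TNF, 2.52% to 2.80% in EV-IL1b and 2.84% to 3.14% in EV-Epinephrine, and its part in these differences was not tested.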

How the data were processed

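RNA of 30 hCMEC/D3 libraries, 10 groups of 3, was sequenced from 1 ng of total RNA, per the labels' protocols. The authors deposited raw read counts per Ensembl gene, with no normalization. FastQC, STAR, DESeq2, R 4.4.1 and the build hg38 are named in the submitters' processing notes. The counting program, annotation release and use of strand are not given in the sources used here. Library totals ran from 16643961 to 22112326 counts, so a count of 0 allows up to 3 counts (counting error only, since no molecular identifiers are described). Of 63147 lines, 4 without a gene ID held at most 0.00164% of a library and were left out, as were 2 genes (TTN, ANK2) whose lines hold no counts. No replicate pair agreed within sampling noise: the chi-square per gene was 2.80 to 3.32 in EV-C5a and 4.87 to 10.1 in EV-Control.

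Counts were tested in R 4.3.3 with edgeR 4.0.16, with trimmed mean of M-values factors, filterByExpr at its defaults and robust quasi-likelihood fits, two-sided, with Benjamini-Hochberg adjustment over all genes of a comparison and a threshold of 0.05. Vesicle comparisons used the 15 vesicle libraries (15918 genes), direct C5a the 15 direct libraries (15908 genes) and the interaction all 30 (16691 genes). Intervals of 95% come from Wald standard errors of that fit and are not adjusted for the number of genes. CPM values divide each count by the effective library size. The test was checked on simulated data. The replicate numbers of the groups did not pair the libraries.

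Groups came from the labels. The comparison, gene lists and naming rule were chosen with earlier results of these data known. The rule names genes with an adjusted p under 0.05 and at least 1 CPM, filled to 10 in each direction by unadjusted p among genes of at least 5 CPM whose libraries do not overlap. It further names 15 set genes (C5a receptors, adhesion, chemokine and barrier genes), up to 5 genes in each direction of direct C5a, up to 4 of each list by unadjusted p, and up to 3 in each direction of the other comparisons. Results for 1 gene that the rule selects are not reported here, but it enters the counts. Alternatives were relative log expression or total-count scaling, no filter or a mean of at least 50 counts, DESeq2 1.42.0, a replicate block, other sets of libraries, a threshold of 0.1 and leaving out each library. Voom of limma 3.58.1 with sample weights was chosen after seeing the data. Promoters are RefSeq windows of GRCh38.p14. Positions are GENCODE 29.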

Additional observations from a re-analysis of the deposited data

Results flagged for a closer look

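The response to C5a vesicles (EV-C5a over EV-Control) and the response to C5a itself (C5a over Control) differed for 1989 of 16691 genes, tested as an interaction with edgeR's quasi-likelihood test. Values below are the vesicle response minus the direct response on the log2 scale, and each had an adjusted p under 0.05. A positive value means that expression was higher, relative to its control, with vesicles than with C5a.

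Among genes that passed in the vesicle comparison the difference was 1.43 for EIF4A1, 2.06 for AREG, 0.67 for SOX17, 0.53 for FAM43A and -0.20 for MYH9. AREG, SOX17 and FAM43A were lower in both responses and lowered more by C5a itself. EIF4A1 and MYH9 had opposite signs in the responses, and neither passed in the direct one.

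Among chemokine, cytokine and feedback genes it was 1.79 for CXCL8, 1.55 for IL6, 2.04 for NFKBIA and 3.35 for CCL20, a chemokine that attracts lymphocytes and dendritic cells. CCL20 was at 7.60, 8.79 and 9.09 CPM in EV-C5a and at 12.8, 9.47 and 5.41 CPM in EV-Control, which overlap. Among junction, adhesion and transport genes it was 1.34 for CLDN5, 0.21 for CDH5, 0.44 for PECAM1 and 0.30 for ABCB1.

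Among genes that direct C5a lowered most it was 4.21 for NR4A2, 2.95 for NR4A3, 2.97 for SIK1, 2.88 for LIF 2.62 for NR4A1 and 1.74 for F2RL3. Among those raised by direct C5a it was -1.81 for SFRP1, -2.13 for THBS1-IT1, -1.35 for PARS2, -1.31 for MMRN1, -1.16 for ZNF322 and -1.40 for ZNF780A, a zinc finger gene. Most of these genes were named by the size of their direct change or of the interaction, so passing was largely set by that choice. Control levels of the 2 arms differed for several of these genes, and their part in the differences was not tested.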

How the results depend on the processing

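The count of genes that differed between EV-C5a and EV-Control, 8 in the report, depended on the analysis. It was 22 at an adjusted p under 0.1, 5 with scaling by total counts, 73 without the filter on low counts, 3 with a mean of at least 50 counts, 5 with voom and sample weights, 3 when only the groups compared were fitted and 3 with all 30 libraries. All 73 genes without the filter were among the 15918 tested with it, and the cause was not tested. Leaving out 1 library gave 2 to 175 genes, the highest without EV-Control replicate 3, and fewer samples enter each of these fits. It was 8 with relative log expression factors and 6 with DESeq2. With replicate number as a block it was 6. Libraries with the same number did not deviate together (correlations -0.09, 0.07 and -0.16), so the numbers were not taken as pairs, and the block moved no count of the other comparisons by over 1.5 times. No result changed direction while past the threshold. The number of genes bounded inside 1.5-fold, 11035, ranged from 10241 with intervals of 99% to 11159. Of 2780 single values and counts recomputed, 2570 were unchanged by a set rule. A called gene had to stay called, and an uncalled gene had to stay uncalled and move by less than its SE. A list median had to move by less than the median SE of its genes, and a count had to stay within 1.5 times. The 2780 include the main fit read at a threshold of 0.1, whose fold changes could not move. Depth limits genes under 1 CPM, none of which was bounded inside 1.5-fold.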

Other observations

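Among coagulation genes, F2RL3, the thrombin receptor PAR4, was at 1.22, 0.814 and 1.00 CPM in EV-C5a and at 2.81, 2.80 and 2.40 CPM in EV-Control. The groups did not overlap, its log2 fold change was -1.39 (95% interval -2.03 to -0.75) and its adjusted p was 0.0749 in edgeR's quasi-likelihood test. Direct C5a lowered it by a log2 fold change of -3.12. F3, the initiator of coagulation, was at 23.0, 19.7 and 20.2 CPM against 38.3, 29.5 and 18.8 CPM, with EV-Control replicate 3 below all EV-C5a libraries. Of 20 coagulation genes tested 0 passed.

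Among growth and matrix genes, ID2, an inhibitor of transcription factors that TGF-beta family signals regulate, was at 42.7, 41.8 and 35.6 CPM in EV-C5a and at 41.9, 54.6 and 52.6 CPM in EV-Control (log2 fold change -0.31, adjusted p = 0.258, edgeR), and -1.59 with direct C5a. The Notch ligand DLL4 was at 5.85, 7.16 and 5.58 CPM against 11.5, 9.19 and 5.80 CPM (log2 fold change -0.51, adjusted p = 0.460, edgeR), and -1.19 with direct C5a. The proliferation marker MKI67 was at 801.0, 806.5 and 803.6 CPM against 682.8, 740.6 and 783.7 CPM (log2 fold change 0.13, adjusted p = 0.347, edgeR). MKI67 did not overlap between the groups, whereas ID2 and DLL4 did.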
